A study of Mus musculus with 14 samples.

Results

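The neurotransmitter receptor genes examined here are 41 mouse genes that encode receptors for noradrenaline and adrenaline, dopamine, serotonin, acetylcholine, GABA and glutamate. H3K27me3, the trimethyl mark that Polycomb places on histone H3, was read at them from the peaks that lay within 5 kb of each RefSeq gene body. All 41 genes had a peak, of 28024 RefSeq genes that did, and together they held 178 of the 74458 peaks in the table. The peaks were profiled by Cut&Tag, which cuts and tags chromatin where an antibody is bound, in mouse embryonic stem cells (mESCs) grown with LIF on CD1 feeder cells. Each of the 3 groups carried a CRISPR-Cas9 deletion of a different stretch that anchors long-range Polycomb contacts: the Hoxa deletion (3 libraries), the Wnt6 deletion (2 libraries) and the Hmx1 deletion (2 libraries). The parental line was G4, a mouse line of hybrid 129/Sv and C57BL/6 background. The deletions were homozygous, and edited cells were picked as clones. The series has no H3K27me3 library of unedited cells analysed here, so each deletion was set against the other deletions. If each deletion is 1 clone, clones and deletions cannot be told apart. The labels do not say that replicates were separate cultures, so the p-values measure only the spread between these libraries, which may be technical. Because the other deletions were pooled, that spread also includes any difference between them.

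Neurotransmitter receptors sit on the surface of neurons and of muscle, gland and fat cells, and fall into receptors that act through G proteins and receptors that are themselves ion channels. They are used by differentiated cells, and in pluripotent cells many genes of differentiated lineages carry H3K27me3, which Polycomb repressive complex 2 writes and which accompanies silent or poised transcription. In mammals such Polycomb domains are known to form mostly over promoters rich in CG dinucleotides that are not transcribed. Because the libraries came from populations of cells, strong marking in some cells and weaker marking in all cells cannot be told apart, and the same holds for any feeder cells among them.

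The promoters at the ends of the range of marking show what these windows look like. RefSeq sequences of assembly GRCm38.p6 (mm10) were matched by symbol for 32 of the 41 genes, and the 250 bases before the annotated start are shown 5′ to 3′ along the gene, with each CG in capitals. The alpha-2 adrenergic receptor gene Adra2b (chr2:127362929-127363178, plus strand) and the serotonin receptor gene Htr7 (chr19:36057361-36057610, minus strand) were among the most strongly marked receptor genes, and Adra2c (chr5:35278316-35278565, plus strand) was as strongly marked with few CG. The serotonin receptor gene Htr2a (chr14:74640624-74640873, plus strand) and the dopamine receptor gene Drd3 (chr16:43761971-43762220, plus strand) were weakly marked. The kainate receptor gene Grik3 (chr4:125490446-125490695, plus strand) had the promoter richest in CG of the 32, with a strong peak over its start and a low level over the gene as a whole.
Adra2b: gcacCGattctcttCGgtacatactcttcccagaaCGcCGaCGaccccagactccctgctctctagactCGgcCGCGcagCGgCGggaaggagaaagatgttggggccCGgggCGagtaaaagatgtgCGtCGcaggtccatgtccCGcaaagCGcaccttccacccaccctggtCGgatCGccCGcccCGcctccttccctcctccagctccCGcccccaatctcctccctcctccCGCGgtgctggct
Htr7: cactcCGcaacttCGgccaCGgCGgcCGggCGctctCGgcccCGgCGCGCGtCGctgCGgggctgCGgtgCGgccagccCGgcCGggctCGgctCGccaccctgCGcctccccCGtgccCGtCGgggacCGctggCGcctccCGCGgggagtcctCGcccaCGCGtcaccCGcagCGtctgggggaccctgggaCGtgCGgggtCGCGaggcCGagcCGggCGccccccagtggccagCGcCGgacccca
Adra2c: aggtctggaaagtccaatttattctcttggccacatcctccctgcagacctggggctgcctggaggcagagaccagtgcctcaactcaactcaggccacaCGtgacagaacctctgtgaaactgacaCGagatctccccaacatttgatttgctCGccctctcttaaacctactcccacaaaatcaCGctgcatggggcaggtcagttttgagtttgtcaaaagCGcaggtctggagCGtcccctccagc
Htr2a: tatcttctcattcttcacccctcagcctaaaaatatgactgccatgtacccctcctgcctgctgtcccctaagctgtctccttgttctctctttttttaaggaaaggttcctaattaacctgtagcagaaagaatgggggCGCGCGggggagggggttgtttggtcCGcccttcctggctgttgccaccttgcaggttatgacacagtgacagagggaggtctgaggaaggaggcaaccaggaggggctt
Drd3: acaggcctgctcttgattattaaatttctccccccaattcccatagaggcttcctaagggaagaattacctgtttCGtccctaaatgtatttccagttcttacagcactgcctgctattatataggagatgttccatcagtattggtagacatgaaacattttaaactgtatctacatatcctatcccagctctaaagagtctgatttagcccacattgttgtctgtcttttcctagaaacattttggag
Grik3: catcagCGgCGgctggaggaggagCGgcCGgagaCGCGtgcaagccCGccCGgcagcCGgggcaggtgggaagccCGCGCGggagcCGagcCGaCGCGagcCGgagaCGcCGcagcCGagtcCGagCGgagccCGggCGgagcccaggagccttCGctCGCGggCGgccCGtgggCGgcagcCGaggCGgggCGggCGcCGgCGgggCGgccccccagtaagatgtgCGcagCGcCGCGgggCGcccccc
Counted over the whole 300-base promoter window, which reaches 50 bases past the start, Adra2b had 29 CG, Htr7 had 46, Adra2c had 7, Htr2a had 6, Drd3 had 2 and Grik3 had 50. The same letters are read on both strands, since CG is its own reverse complement. Of all 32851 RefSeq promoter windows, 94.6% held a CG, with a median of 7, and 12.9% held at least the 29 of Adra2b.

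Library totals over the peaks ran from 6016500 to 36563541 counts, with replicate 1 the shallowest of each deletion, and between 58.1% and 61.2% of each library's counts fell in the strongest 10% of peaks. Log2 CPM over genes correlated at r = 0.985 to 0.991 between libraries of the same deletion and at 0.964 to 0.991 between deletions, and no 2 libraries agreed within sampling noise. The labelled cell type was checked on marker genes. All 8 known Polycomb target genes of pluripotent cells lay in the top 10% of genes by H3K27me3, with a median of 60.0 CPM per kb of peak. The 7 pluripotency genes that had a peak had a median of 5.80, and Dppa4 had none. They ran from Pou5f1 at 5.07 to Klf4 at 11.3 and Esrrb at 19.1. Klf4 and Esrrb lay above the median of all genes with a peak, 9.32. Of 6 housekeeping genes 4 had a peak, with a median of 5.75 and the highest, Actb, at 10.6.

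The receptor genes were among the more heavily marked genes of these cells. The level is given here as CPM (counts scaled to the library total with TMM factors) per kb of peak, averaged with equal weight to the 3 deletions. Its median over the 41 genes was 47.4, beside 9.32 over all 28024 genes with a peak. By this level 25 of the 41 lay in the top 10% of genes, 33 in the top 20%, and 2, Drd3 and Gria1, below the median. The range between receptor genes was 15.6-fold, from 5.08 at Gria1 to 79.3 at Adra2b. Even at Gria1 the raw counts summed over its peaks were never under 61 in a library.

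**Figure D1:**
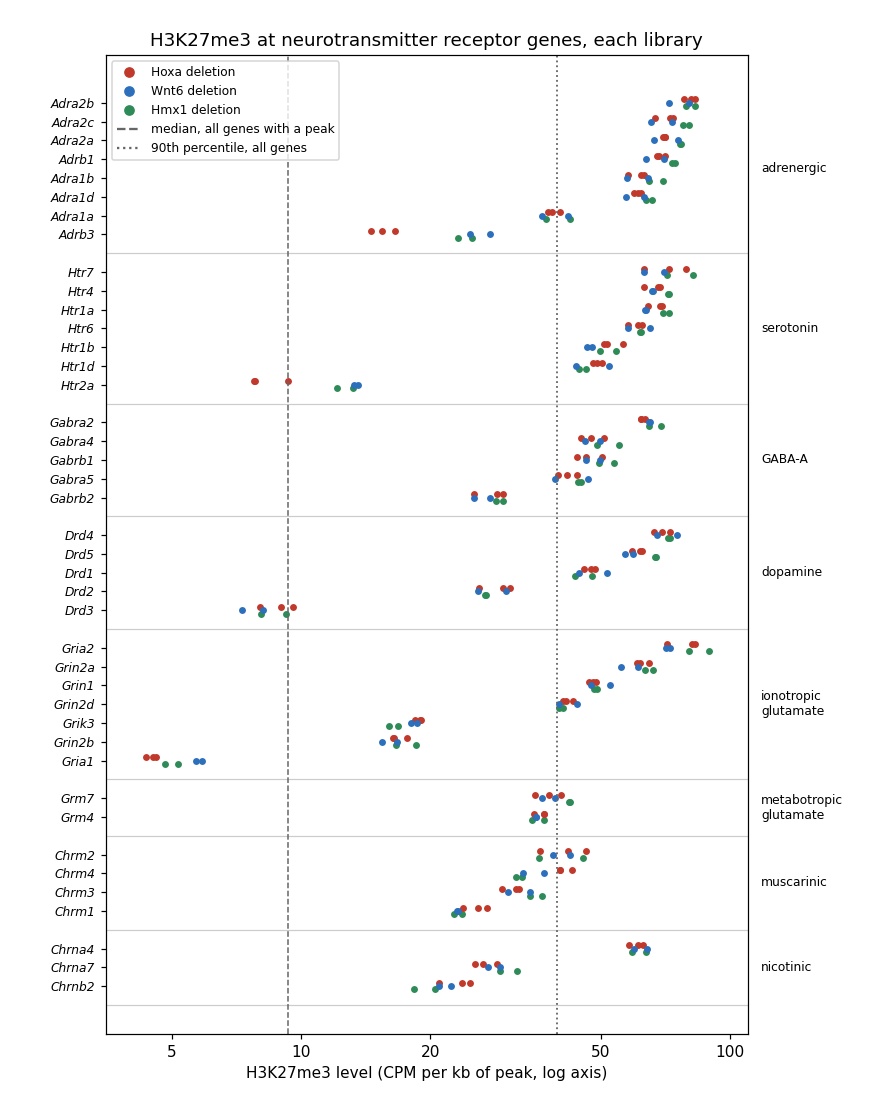
H3K27me3 level of the 41 receptor genes in CPM per kb of peak on a log axis, a point for each of the 7 libraries coloured by deletion, with genes grouped by receptor class and ordered by mean level. The dashed line is the median of all genes with a peak (9.32) and the dotted line their 90th percentile (39.4); most receptor genes lie near or right of the dotted line, and Gria1, Drd3 and Htr2a stand at the left.

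The adrenergic class, receptors for noradrenaline and adrenaline, had the highest median level, 66.4 over 8 genes. Adra2b, whose receptor inhibits adenylyl cyclase, had 82.7, 78.2 and 80.9 CPM per kb in the 3 Hoxa libraries, 80.4 and 72.1 in the Wnt6 libraries, and 79.0 and 82.9 in the Hmx1 libraries. Its relatives Adra2c (73.0) and Adra2a (72.6) came next to Gria2 at the top of the 41. The heart receptor gene Adrb1 stood at 69.8, and the alpha-1 receptor genes Adra1b, Adra1d and Adra1a, which signal through phospholipase C, at 63.0, 61.9 and 39.2. Adrb3, the receptor gene of fat cells, was the lowest of the class at 21.9.

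Serotonin receptor genes followed, with a median of 61.1 over 7 genes. Htr7 (71.4), Htr4 (68.0) and Htr6 (61.1), whose receptors stimulate adenylyl cyclase, and Htr1a (67.3), which inhibits it, were close to each other, and Htr1b (50.6) and Htr1d (47.4) were lower. Htr7 had 71.9, 62.9 and 78.7 in the Hoxa libraries, 70.0 and 63.1 in the Wnt6 libraries, and 81.7 and 71.0 in the Hmx1 libraries. Htr2a, the phospholipase C-coupled receptor gene, was the exception at 11.5, the 58.9th percentile of genes.

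Dopamine receptor genes had a median of 46.9 over 5 genes and the widest spread in proportion outside the glutamate receptors. Drd4, of the group that inhibits adenylyl cyclase, stood at 70.9, with 69.3, 66.6 and 72.4 in the Hoxa, 75.2 and 67.6 in the Wnt6, and 71.7 and 72.3 in the Hmx1 libraries. Drd5 (62.1) and Drd1 (46.9), which stimulate the cyclase, lay above Drd2 (27.8). The level of Drd2 averages 3 peaks, 2 of them below the median of all peaks, and its peak over the start had 43.3. Drd3 reached 8.40, the 44.5th percentile, with 8.02, 8.95 and 9.59 in the Hoxa, 7.27 and 8.13 in the Wnt6, and 8.07 and 9.20 in the Hmx1 libraries.

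Genes of the acetylcholine receptors were marked less. The muscarinic genes, G protein-coupled, had a median of 34.4, with Chrm2, the heart receptor gene, at 40.8, Chrm4 at 36.0, Chrm3 at 32.9 and Chrm1 at 24.0. The level of Chrm3 averages 7 peaks, 6 of them below the median of all peaks. Its peak over the start had 56.9, above the 45.9 of the peak over the Chrm2 start. Chrm2 was also uneven between libraries, with 46.1, 41.9 and 36.0 in the Hoxa, 42.2 and 38.5 in the Wnt6, and 35.8 and 45.3 in the Hmx1 libraries. Among the nicotinic channel subunit genes, Chrna4 stood at 61.2, while Chrnb2, whose product joins that of Chrna4 in the main nicotinic receptor of the brain, stood at 21.4 and Chrna7 at 28.5. The libraries of Chrna4 lay between 58.1 and 63.8 and those of Chrnb2 between 18.3 and 24.7, so that the pair did not overlap.

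GABA-A receptor genes, which encode subunits of a chloride channel, had a median of 48.8 over 5 genes. Gabra2 led at 64.7, with 62.0, 63.4 and 62.0 in the Hoxa, 65.0 and 64.6 in the Wnt6, and 64.6 and 69.1 in the Hmx1 libraries. Gabra4 (49.1) and Gabrb1 (48.8) are neighbours and share 2 peaks, so their values are not independent. Gabra5 followed at 43.1, and Gabrb2 at 27.7.

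The ionotropic glutamate receptor genes ran from close to the top to the bottom of all 41. Gria2, the AMPA receptor subunit that limits calcium entry, had 81.4, 71.3 and 82.8 CPM per kb in the Hoxa, 72.4 and 70.9 in the Wnt6, and 89.3 and 79.98 in the Hmx1 libraries. Gria1, a subunit of the same receptor, had 4.35, 4.60 and 4.52 in the Hoxa, 5.68 and 5.86 in the Wnt6, and 4.82 and 5.16 in the Hmx1 libraries, the 13.3th percentile of genes. Both are AMPA receptor genes and the libraries of Gria2 lay far above those of Gria1.

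NMDA receptor genes lay between them: Grin2a stood at 61.7, the obligatory subunit gene Grin1 at 48.7, Grin2d at 41.3 and Grin2b at 16.8. Grin2b had 17.6, 16.5 and 16.3 in the Hoxa, 16.7 and 15.5 in the Wnt6, and 18.5 and 16.6 in the Hmx1 libraries. This level averages 20 peaks, the strongest of which had 60.7. The kainate receptor gene Grik3 had 19.0, 19.0 and 18.4 in the Hoxa, 18.7 and 18.1 in the Wnt6, and 16.0 and 16.8 in the Hmx1 libraries. The metabotropic receptor genes Grm7 (39.2) and Grm4 (35.7), both presynaptic and coupled to G proteins, were near each other, Grm4 with 24 peaks, the most of the 41.

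Most neighbours in this order did not differ beyond their spread. Of the 40 pairs of neighbours, 37 overlapped in the range of their 7 libraries, and the exceptions were Htr6 over Htr1b, Grin2b over Htr2a and Drd3 over Gria1. Levels per kb of peak depend on the deposited list of peaks: per kb of gene body plus window, the median percentile of the receptor genes was 80.1 in place of 93.3.

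The strongest peak of a receptor gene usually lay over its start. Among the 32 genes with a RefSeq promoter entry it covered an annotated start in 27, lay within 1 kb of one at Gabrb1 (505 bp), and was farther away in 4. At Grin1 the strongest peak (71.9 CPM per kb) began 26186 bp from the start, around the gene's end, where it was also counted for the coding neighbours Anapc2, Lrrc26 and Tmem210. The peak over the Grin1 start had 36.2. At Grin2d it lay 31615 bp from the start at 64.5 CPM per kb, beside 53.7 for the peak 141 bp from the start. Drd3 had no peak within 5 kb of its start, and its strongest peak, 16.6 CPM per kb, lay 39624 bp inside the gene. At Chrm4 a peak of 254 bp that lay 3255 bp from the start (46.0) barely exceeded the broad peak over the start (42.3). Of the 41 genes, 36 had a strongest peak in the top 10% of all peaks. In all, 10 receptor genes shared a peak with another coding gene, among them Adra2b with Astl, Drd4 with Deaf1 and Htr6 with Tmco4.

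**Figure D2:**
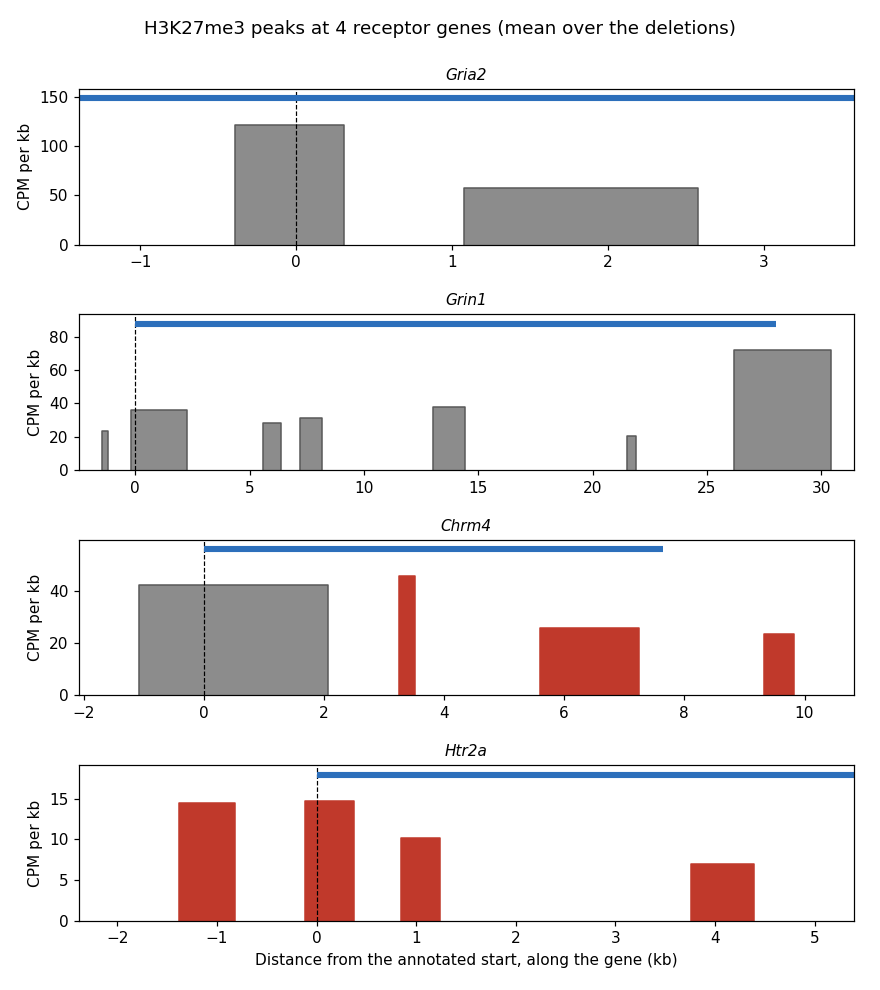
Peaks at Gria2, Grin1, Chrm4 and Htr2a by distance from the annotated start (dashed line, kb along the gene), with height as CPM per kb averaged over the deletions and the blue bar marking the gene body. Gria2 has its strongest peak over the start and Grin1 at its far end; peaks in red differed in the Hoxa deletion at an adjusted p under 0.05, 3 at Chrm4 downstream of the start and all 4 at Htr2a.

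Receptor genes with more CG at the promoter tended to be marked more, but loosely. Over the 32 genes, the log2 level and the number of CG correlated at Pearson's r = 0.30 (Spearman's rho = 0.26), beside 0.15 (0.17) over 12955 coding genes with a peak and a promoter entry. These are correlations across genes of the same 7 libraries, so genes are not independent replicates and no p is given. The 12 most strongly marked had a median of 28 CG and the 12 least marked 13.5. The sequences above show the exceptions: Adra2c and Htr1a were at 73.0 and 67.3 CPM per kb with 7 CG each, and Chrna7 at 28.5 with 35. Grik3 had 50, a number that 0.855% of all windows reached, and a level of 17.8 over the gene, which averages 12 peaks, 9 of them below the median of all peaks. The peak over the Grik3 start had 36.7, the 91.7th percentile of peaks. With the strongest peak of each gene in place of its level, r was 0.30 and rho 0.24.

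**Figure D3:**
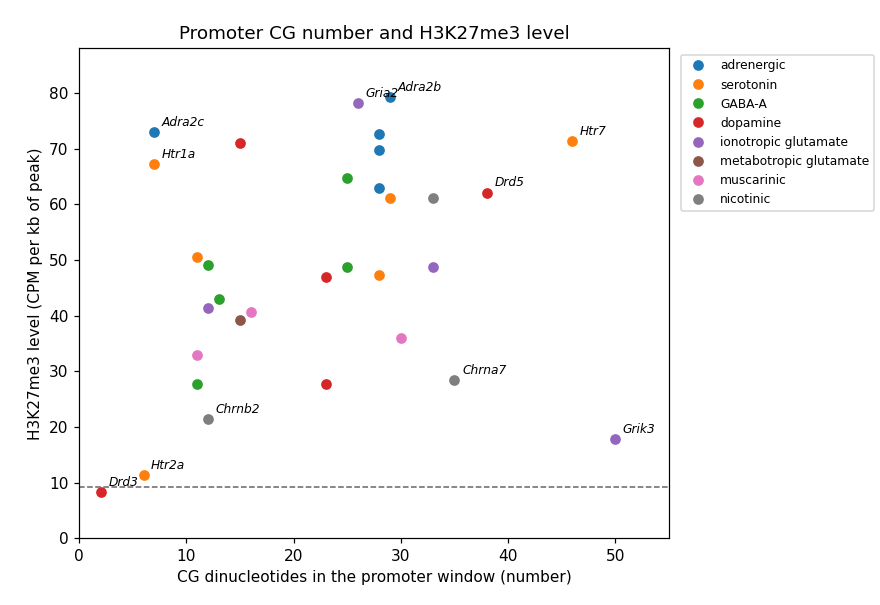
H3K27me3 level in CPM per kb of peak against the number of CG in the 300-base promoter window, a point for each of the 32 receptor genes with a promoter entry, coloured by receptor class. The dashed line is the median of all genes with a peak; Adra2c and Htr1a are high with 7 CG, Grik3, averaged over 12 peaks, is low with 50, and Htr2a and Drd3 are low with 6 and 2.

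Other genes of the same pathways were marked somewhat less. Of 52 further receptor genes of these families, 48 had a peak. Their median was 25.9 CPM per kb, and 10 lay in the top 10% of genes, led by the NMDA receptor gene Grin2c (62.2) and the nicotinic gene Chrna3 (61.4). Of 20 genes for synthesis and transport of transmitters, 19 had a peak, with a median of 37.6 and 9 in the top 10%. Slc18a3, the vesicular acetylcholine transporter gene, had 99.7, above every receptor gene, and the vesicular transporter genes Slc18a2 (78.0) and Slc32a1 (76.8) followed. Th and Ddc, of dopamine synthesis, stood at 23.7 and 8.80, and Dbh had no peak.

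The mark at receptor genes was nearly the same in the 3 deletions. The highest of the 3 deletion means exceeded the lowest by a median factor of 1.10 over the 41 genes, and by less than 1.2 in 37 of them. This ratio is not given here for all genes, so it does not set the receptor genes apart. The median coefficient of variation between libraries of a deletion was 4.22% for Hoxa (n = 3), 6.46% for Wnt6 (n = 2) and 3.53% for Hmx1 (n = 2). Each deletion was tested against the other deletions pooled with edgeR's quasi-likelihood test over 28019 genes, and called genes were those with a Benjamini-Hochberg adjusted p under 0.05 and a log2 fold change beyond 1 in either direction. No receptor gene was called in any comparison. The background was 0.814% of genes called in the Hoxa, 0.0428% in the Wnt6 and 0.0321% in the Hmx1 comparison. Without the minimum on the fold change, 3 of the 41 passed in the Hoxa comparison beside 15.9% of all genes, and 0 in the Wnt6 and Hmx1 comparisons beside 0.05% and 0.0535%. A difference between the pooled deletions counts as spread in these tests and can hide a change. At Adrb3 the standard error of the log2 fold change was 0.0878 in the Hoxa, 0.189 in the Wnt6 and 0.219 in the Hmx1 comparison. At an unadjusted p under 0.05 there were 5, 1 and 5 of the 41, beside 27.2%, 5.39% and 12.6% of all genes, and DESeq2 called 0 receptor genes in each. Within 0.25 on the log2 scale lay 37, 38 and 38 of the 41, and 36.0%, 24.6% and 32.2% of all genes lay beyond it.

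**Figure D4:**
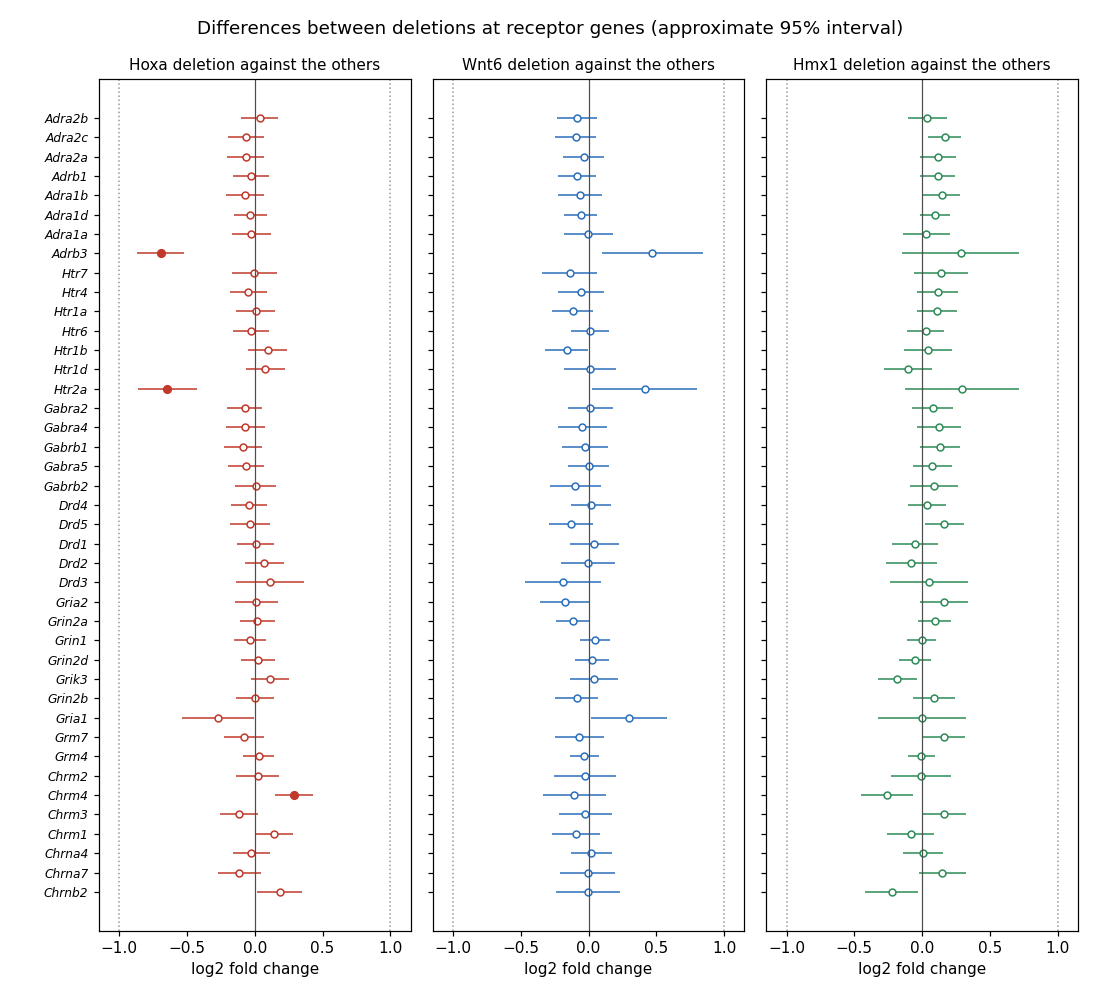
Log2 fold change of each receptor gene in each deletion against the other deletions pooled, with bars of 1.96 SE on either side as approximate 95% intervals, filled points at an adjusted p under 0.05 and dotted lines at a log2 fold change of 1 in either direction. Adrb3, Htr2a and Chrm4 are filled in the Hoxa comparison, and no point reaches a dotted line. The bars can be narrower than the test implies. At Adra1b in the Hmx1 comparison the bar runs from 0.0075 to 0.283, with an unadjusted p of 0.060 by edgeR's test.

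Adrb3 and Htr2a had lower H3K27me3 counts in the Hoxa deletion, and Chrm4 had higher counts. Adrb3 had 15.4, 14.5 and 16.6 CPM per kb in the Hoxa libraries, 27.5 and 24.8 in the Wnt6 libraries, and 25.01 and 23.2 in the Hmx1 libraries. Every Hoxa library lay under all others, and the log2 fold change was -0.70 (SE 0.0878), or 61.7% of the other deletions, with an adjusted p of 5.54e-07 by edgeR's quasi-likelihood test. Adrb3 lies on chromosome 8, and the genes of this chromosome were lower as a whole: their median log2 fold change was -0.51, with 1078 of 1707 lower at an adjusted p under 0.05, while every other chromosome had a median between 0.03 and 0.12. Of the 38 peaks within 200 kb of Adrb3, 37 were lower. These counts cannot tell less of the mark from fewer copies of the chromosome, and copy number was not tested. With the chromosome medians removed, an alternative chosen after seeing the data, the Adrb3 difference became -0.20 with an adjusted p of 0.126, which did not pass the threshold. Adrb3 also shared a peak with the coding gene Got1l1.

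Htr2a had 7.76, 9.30 and 7.80 CPM per kb in the Hoxa libraries, 13.5 and 13.3 in the Wnt6 libraries, and 12.1 and 13.2 in the Hmx1 libraries. The Hoxa libraries did not overlap the rest, and the log2 fold change was -0.64 (SE 0.111), or 64.0% of the other deletions, with an adjusted p of 6.58e-05. All 4 of its peaks were lower at an adjusted p under 0.05, with log2 fold changes from -0.50 in the peak before the start to -0.94 in the peak 843 bp past it. Taken alone as the reference, the Wnt6 deletion gave -0.68 and the Hmx1 deletion -0.61, and the difference was -0.71 with chromosome medians removed. The single further peak within 200 kb had a log2 fold change of 0.10. Htr2a lies on chromosome 14, whereas the Hoxa cluster lies on chromosome 6.

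Chrm4 had 42.7, 40.0 and 40.1 CPM per kb in the Hoxa libraries, 36.8 and 32.9 in the Wnt6 libraries, and 31.6 and 32.7 in the Hmx1 libraries. All Hoxa libraries were above the rest, with a log2 fold change of 0.29 (SE 0.0706), 122% of the other deletions, and an adjusted p of 0.00374. Against the Hmx1 deletion alone the difference was 0.34, and against the Wnt6 deletion alone it was 0.23 with an adjusted p of 0.0692. The peak over the Chrm4 start gave 0.15 with an adjusted p of 0.252, while the 3 peaks past it gave 0.45, 0.57 and 0.55, each at an adjusted p under 0.05. All 4 peaks were also counted for coding neighbours among Ambra1, Dgkz and Mdk, so these counts are not those of Chrm4 alone. Of the 25 peaks within 200 kb, 20 were higher, 2 of them at an adjusted p under 0.05. The median log2 fold change of the 25 was 0.16. Over all genes, 58.5% were higher in the Hoxa comparison. Next by adjusted p came Chrnb2 at 0.18 (SE 0.0845, adjusted p = 0.150) and Chrm1 at 0.14 (SE 0.0689, adjusted p = 0.175), neither past the threshold.

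**Figure D5:**
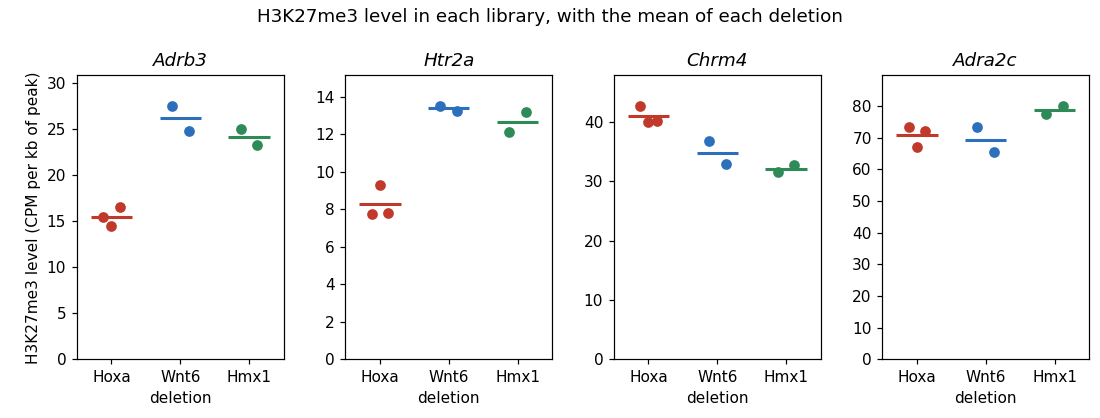
H3K27me3 level in CPM per kb of peak for Adrb3, Htr2a, Chrm4 and Adra2c, a point for each library and a bar for the mean of each deletion, on axes that start at 0. The 3 Hoxa libraries lie below all others at Adrb3 and Htr2a and above them at Chrm4, and the 2 Hmx1 libraries lie above the rest at Adra2c.

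At single peaks the Hoxa comparison gave 16 of 177 tested receptor gene peaks at an adjusted p under 0.05, 7 of them higher, beside 8.53% of all 74441 peaks. With the fold change minimum 2 were called, beside 1.55% of all peaks, and both were weak peaks within Grm7 that were lower in the Hoxa deletion. Grm7 lies on the same chromosome as the Hoxa cluster. The peak at chr6:111071866-111072175 (mm10, as deposited) had 5, 14 and 8 raw counts in the Hoxa libraries, 19 and 85 in the Wnt6 libraries, and 6 and 44 in the Hmx1 libraries, a log2 fold change of -1.75 with an adjusted p of 0.00208. The peak at chr6:110864524-110864924 had 11, 34 and 14 counts in the Hoxa, 22 and 68 in the Wnt6, and 26 and 55 in the Hmx1 libraries, with -1.04 and 0.0401. They stood at the 10.1th and 24.8th percentile of all peaks, 426268 and 218926 bp from the Grm7 start, and the strongest Grm7 peak, over the start, had -0.03. The second call was lost without any library other than Wnt6 replicate 2, with adjusted p from 0.0528 without Wnt6 replicate 1 to 0.164 without Hoxa replicate 3, and the first was lost when counts were thinned to the smallest library (adjusted p = 0.132). In the Wnt6 and Hmx1 comparisons no receptor gene peak was called, beside 0.0497% and 0.0282% of all peaks, and 5 and 16 of the 177 had an unadjusted p under 0.05, beside 5.20% and 8.95% of all peaks.

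Summed over their peaks, receptor genes on the chromosome of a deletion gave little difference. The Hoxa stretch without signal in its own deletion ran over chr6:52163046-52274461, and the chromosome also holds Chrm2 at 15.6 Mb, Grm7 at 58.4 Mb and Grin2b at 83.4 Mb from it. Their log2 fold changes in the Hoxa deletion were 0.02 (SE 0.0815), -0.08 (SE 0.0747) and -0.00073 (SE 0.0725). The weak peaks within Grm7 that were called lower in the Hoxa deletion are also on this chromosome. Of its 3978 peaks, 123 were lower and 283 higher in that comparison at an adjusted p under 0.05. Peaks of the deleted stretch were not left out of these counts. The peak over the Chrm2 start, which held 98.1% of the gene's CPM, gave 0.03, and the weak second peak gave -0.38 (SE 0.286). Chromosome 1, with the Wnt6 stretch, holds none of the 41.

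The nearest receptor gene to any deletion was Adra2c, 101 kb from the Hmx1 stretch at chr5:35382872-35401827. It had 77.5 and 80.1 CPM per kb in the Hmx1 libraries, 73.4, 66.9 and 72.2 in the Hoxa libraries, and 73.2 and 65.4 in the Wnt6 libraries. Both Hmx1 libraries were the highest of the 7, and the log2 fold change of 0.17 (SE 0.0611) had an unadjusted p of 0.0179 and an adjusted p of 0.298 by edgeR's test. The next on that chromosome was Drd5, 2.92 Mb away, with 0.16 (SE 0.0732) and an adjusted p of 0.385. The GABA-A genes Gabra2, Gabra4 and Gabrb1, between 35.6 and 36.3 Mb away, had 0.08, 0.13 and 0.13, and Gabra4 and Gabrb1 share peaks. Receptor genes on other chromosomes had values similar to those of Adra2c and Drd5. Among them were Grm7 (0.16, chromosome 6), Chrm3 (0.16, chromosome 13) and Gria2 (0.16, chromosome 3), while 11 of the 41 were below 0.

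Small upward differences were common at receptor genes in the Hmx1 deletion. Their median log2 fold change was 0.08, beside -0.03 over all genes, and 30 of the 41 were above 0. The 2803 genes in the top 10% by level, the range in which most receptor genes lay, had the same median of 0.08 with 80.6% above 0, against -0.06 in the rest. All 8 adrenergic and all 5 GABA-A genes were above 0, with class medians of 0.12 and 0.09, and 1 of the 4 muscarinic genes was. The Hmx1 libraries had 61.0% and 61.2% of their counts in the strongest 10% of peaks, against 58.1% to 60.5% in the others, and the part of this in the result was not tested. Without Hmx1 replicate 2 the median was 0.040, and 0.045 with library totals alone as the scaling.

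In the Hmx1 deletion 12 of the 41 receptor genes had libraries that did not overlap the others, 9 higher and 3 lower, beside 18.9% of all genes. Adrb1 had 73.1 and 74.2 CPM per kb in the Hmx1 libraries against 63.5 to 70.6 elsewhere, without overlap. The 3 lower genes were Chrm4 at -0.26 (SE 0.0967, adjusted p = 0.305), Chrnb2 at -0.23 (SE 0.098, adjusted p = 0.373) and Grik3 at -0.18 (SE 0.0745, adjusted p = 0.341). In the Hoxa comparison these genes had 0.29, 0.18 and 0.11. The Hoxa libraries are among the controls here, so the lower Hmx1 values are not independent of those. Without overlap were also 6 of the 41 in the Hoxa comparison, beside 24.3% of all genes, and 4 in the Wnt6 comparison, beside 10.2%.

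In the Wnt6 deletion the receptor genes with the smallest adjusted p, 0.873 in each, were Adrb3 (log2 fold change 0.47), Htr2a (0.42), Gria1 (0.30), Gria2 (-0.18), Htr1b (-0.16) and Grin2a (-0.12). Adrb3 and Htr2a are the pair that was low in the Hoxa libraries, which are among the controls here, so these values are not a separate result. Gria1 had the highest level in both Wnt6 libraries and Htr1b the lowest. Gria1 was also low in the Hoxa libraries, at -0.27 in the Hoxa comparison, so its value here is not independent of that one. The median over the 41 genes was -0.03, as over all genes.

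Among the wider lists, 5 of the 48 further receptor genes and 1 of the 19 synthesis and transport genes differed in the Hoxa deletion at an adjusted p under 0.05, beside 15.9% of all genes. Of the further receptor genes 3 were higher: Chrna1 (0.49), Chrnb1 (0.38) and Chrnd (0.26), which encode subunits of the nicotinic receptor of muscle. The other subunit genes of that receptor had 0.34 (Chrne, adjusted p = 0.0967) and 0.15 (Chrng, adjusted p = 0.419). Lower were Chrna6 (-0.98) and Chrnb3 (-0.55), and of the synthesis and transport genes the noradrenaline transporter gene Slc6a2 (-0.61), all on chromosome 8 with its lower median. None was called with the fold change minimum, and in the Wnt6 and Hmx1 comparisons none of these genes passed the adjusted p.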

How the data were processed

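H3K27me3 Cut&Tag libraries of mESCs with the Hoxa, Wnt6 or Hmx1 deletion were read from 1 table of raw counts per peak that the authors deposited, with 7 H3K27me3 columns matched to samples by title. Per the labels, reads were handled with Trimmomatic, Bowtie2 (mm10), SAMtools, Picard, MACS2 and deepTools. Their versions, how the shared peak list was made and whether PCR duplicates were removed are not given in the sources used here. Such a list can favour regions that were strong where it was called. Background was not subtracted, and the 7 IgG libraries were not analysed here. PCR reads carry no molecular identifiers.

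Peaks within 5 kb of a RefSeq gene body (GRCm38.p6, 49980 genes) were summed per gene, and a peak near several genes counted for each. Peak starts are as deposited, and exon or intron positions were not given. CPM used library totals over 74458 peaks times TMM factors. Levels are per kb of peak. The tests used R 4.3.3 with edgeR 4.0.16 (glmQLFit, glmQLFTest, filterByExpr by genotype) or DESeq2 1.42.0, and the standard error was taken from the F statistic. The scripts were tested on simulated data. Each deletion was tested against the others pooled, with adjustment over all genes or peaks. A deleted stretch was the longest run of peaks under 10% of the other deletions. Alternatives were other scalings, filters, windows, gene assignments, single reference deletions, thinning and leaving out each library. The 41 genes and all gene lists were chosen with earlier results of these data known. Genes named in full were those called, the 5 smallest adjusted p in each comparison, the 5 highest and lowest levels, the top of each class, and those on a deleted chromosome. CG numbers come from the RefSeq window with most CG of each gene. Plots were made with matplotlib 3.10.9.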

Additional observations from a re-analysis of the deposited data

How the results depend on the processing

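Of 797 alternatives to the values of the comparisons, 716 kept the direction and the side of the threshold or moved little. No receptor gene was called under any alternative that kept the minimum on the fold change, and Htr2a kept its lower level in the Hoxa deletion under all 21 settings tried. The median percentile of the receptor genes was 92.6 with gene bodies only and 80.1 per kb of gene body plus window.

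In the Hoxa comparison, removing chromosome medians gave 122 called genes in place of 228, 498 called peaks in place of 1153, 1 called receptor gene peak in place of 2, and a median of -0.10 over the receptor genes in place of -0.03. Against the Wnt6 deletion alone that median was 0.020, with 1 called receptor gene peak, and against the Hmx1 deletion alone it was -0.068. DESeq2 called 1 receptor gene peak. Without the fold change minimum there were 4449 genes and 6347 peaks past the threshold, 3 receptor genes and 16 receptor gene peaks among them. Leaving out a library gave 1 to 3 (3 without Wnt6 replicate 2) called receptor gene peaks.

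In the Wnt6 comparison, a term for each genotype gave 44 called genes in place of 12 and 132 peaks in place of 37. Against the Hoxa deletion alone there were 213 genes and 969 peaks, 1 of them at a receptor gene, and against the Hmx1 deletion alone 25 genes and 70 peaks. Leaving out a library gave 35 to 67 peaks.

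In the Hmx1 comparison, 9 genes and 21 peaks were called. DESeq2 gave 18 genes and 42 peaks, a term for each genotype 74 and 218, the Hoxa deletion alone as reference 325 and 1269 with 2 receptor gene peaks, and the Wnt6 deletion alone 25 and 70. Gene bodies only gave 5 genes and no fold change minimum gave 15. Leaving out a library gave 6 to 37 genes, 18 to 92 peaks and a median over the receptor genes of 0.040 to 0.097, which was 0.12 with chromosome medians removed. The cause was not tested for these counts. Where 1 of 2 libraries of a deletion was left out, the remaining one was assumed to vary like the others.

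Values of distant genes near 0 changed sign. In the Hoxa deletion Chrm2 had -0.38 with peaks counted for the nearest gene only, which left it its weak second peak alone, -0.034 with chromosome medians removed, -0.010 with the Hmx1 deletion alone as reference, and -0.063 to 0.11 without a library. Grin2b had 0.0066 with DESeq2, 0.0046 with RLE factors, 0.011 with library totals alone, 0.0013 with a term for each genotype, 0.012 with a window of 10 kb, 0.061 against the Wnt6 deletion alone, and -0.040 to 0.046 without a library. Grm7 had 0.0020 against the Wnt6 deletion alone.

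Deviations of libraries with the same replicate number correlated at -0.06 to 0.11. With 2 libraries each in the Wnt6 and Hmx1 deletions, the deviations mirror each other. These values therefore cannot decide whether libraries were paired. With a replicate block, 1 receptor gene peak was called in the Hoxa deletion, Grin2b had 0.019, and 0 receptor genes were called. Depth limited the weak Grm7 peaks, whose raw counts were as low as 5, and intervals cover counting and library spread only. Differences between the pooled deletions are part of that spread.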
